A study of Homo sapiens with 44 samples.

Results

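Accessible chromatin was measured in Ccd18-Co cells, which are human colon fibroblasts kept as a line, and was compared directly between cells given transforming growth factor-β1 (TGF-β1) and cells given oncostatin M (OSM), both at 10 ng/ml. The comparison used the 8 libraries of these groups, 4 with TGF-β1 and 4 with OSM, out of 44 libraries in the series, and covered every peak of the deposited table that passed a filter on low coverage (407174 peaks). The other libraries, including 4 from unstimulated cells, entered the low-coverage filter, the scaling and the estimate of the spread. The unstimulated values are also given as a reference. All groups were serum-starved and then kept in serum-free medium with or without the cytokine for a day, so that cells without cytokine were also starved cells. Ccd18-Co is a single line, and the labels do not say whether replicates came from separate cultures, so p-values measure only the spread between these libraries.

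TGF-β1 is the main cytokine of the myofibroblast state. It binds a pair of serine/threonine kinase receptors, which phosphorylate SMAD2 and SMAD3, and these enter the nucleus with SMAD4 and bind short SMAD elements, often beside AP-1 factors. OSM belongs to the IL-6 family and signals through a receptor that contains gp130 (encoded by IL6ST). The bound JAK kinases activate STAT3, which binds palindromic elements near its targets, among them SOCS3, the feedback inhibitor of the same pathway. Both cytokines act on intestinal fibroblasts, TGF-β1 mostly on contractile and matrix genes and OSM mostly on inflammatory genes.

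Short stretches of the most different peaks are printed first to show 2 of the strings counted further on where they occur, and they were chosen for holding them. They come from the 3 peaks higher with TGF-β1 that differed most among those holding the SMAD palindrome GTCTAGAC, and from the peak higher with OSM that differed most among those holding the STAT3 string TTCCNGGAA. Each stretch is 120 bases of the plus strand of hg38, 5′ to 3′, named by the gene the deposited table gives the peak. Capitals mark the string.
BDKRB2, chr14:96141123-96141242, higher with TGF-β1: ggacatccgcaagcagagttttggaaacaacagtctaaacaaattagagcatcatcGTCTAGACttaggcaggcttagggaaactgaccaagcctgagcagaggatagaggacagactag
C1orf105, chr1:172293619-172293738, higher with TGF-β1: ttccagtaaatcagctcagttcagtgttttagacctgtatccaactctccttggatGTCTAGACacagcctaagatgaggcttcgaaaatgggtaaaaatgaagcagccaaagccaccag
ITGB1, chr10:32992950-32993069, higher with TGF-β1: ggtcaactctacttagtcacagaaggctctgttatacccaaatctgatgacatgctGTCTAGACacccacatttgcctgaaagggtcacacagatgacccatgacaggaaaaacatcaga
IL7R, chr5:35784555-35784674, higher with OSM: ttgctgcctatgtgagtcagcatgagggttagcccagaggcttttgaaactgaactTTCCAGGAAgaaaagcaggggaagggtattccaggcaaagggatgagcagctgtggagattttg

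The IL7R stretch also held an AP-1 string (TGANTCA).

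The libraries differed in depth, in how coverage was spread over peaks and in their correlation within a group. Correlations between pairs of libraries ran from 0.811 to 0.853 with TGF-β1 and from 0.914 to 0.935 with OSM. Between a TGF-β1 and an OSM library they ran from 0.831 to 0.868. Both ends of the TGF-β1 range were thus lower than those between the groups, for a reason that was not tested. The spread behind the limma p-values was estimated over all 44 libraries, not for each group. Coverage per library ran from 318.5 to 590.8 megabases (Mb) with TGF-β1 and from 427.3 to 666.8 Mb with OSM (exact permutation test of the means, two-sided p = 0.2). The share of a library's coverage that fell in its top 1% of peaks was 12.5 ± 0.533% with TGF-β1 and 15.6 ± 0.366% with OSM (SD, n = 4 each, exact permutation test, two-sided p = 0.0286, the smallest that 4 against 4 allows). Unstimulated libraries lay between the groups, at 13.8 to 14.6%. Peaks without any coverage made up 0.879 to 8.17% of peaks with TGF-β1 and 9.64 to 17.0% with OSM (exact permutation test, two-sided p = 0.0286), although the OSM libraries were not the shallower ones. Fibroblast identity was checked at start-site peaks of marker genes. Of 13 fibroblast markers, 12 exceeded the median of all promoter peaks, while only 1 of 6 epithelial and 2 of 6 leukocyte markers had a tested peak within 1 kb of a start site. Of the leukocyte peaks 1 exceeded that median and the epithelial peak did not. All 5 endothelial markers had a peak, and none of these exceeded it. The summed level of the endothelial peaks was 4.77 to 6.92 per Mb with TGF-β1 and 1.09 to 3.31 with OSM, a difference on the same side as that of low peaks in general.

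Values below are coverage per Mb, the read coverage summed over the bases of a peak divided by the library's total coverage in Mb and then by a trimmed-mean factor, called the composition factor here, that sets libraries to the same scale. Differences are TGF-β1 minus OSM on the scale of log2(coverage per Mb + 0.5), which understates differences of low peaks, and a peak was called at a limma adjusted p under 0.05. With this scaling 57006 peaks were called, 42073 higher with TGF-β1 (10.3% of those tested) and 14933 higher with OSM (3.67%). At an unadjusted p under 0.05 there were 132623. The 4 TGF-β1 libraries lay above all 4 OSM libraries in 16.2% of peaks and below them in 4.52%. The median difference over all tested peaks was 0.40, not 0, and it changed along the range of accessibility. When peaks were ordered by mean coverage and split into 10 equal bins, the median was 0.66 in bin 3, -0.07 in bin 9 and -0.23 in bin 10, the bin with the most coverage. The calls followed it, with 4223 higher with TGF-β1 against 1 higher with OSM in bin 1 and 1978 against 10197 in bin 10.

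Each library was therefore also scaled with loess offsets, a smooth curve fitted against mean accessibility that sets the median to about 0 in every bin. With these offsets 6889 peaks were higher with TGF-β1 (1.69%) and 6890 higher with OSM (1.69%). The share of called peaks higher with TGF-β1 was thus 73.8% with the composition factor and 50% with loess offsets, and it was 41.8% when only peaks with a mean of at least 1 per Mb were fitted and 52.8% when only the 8 libraries were. With library totals alone it was 67.1%, and with median-of-ratios scaling 76.1%. More peaks were thus higher with TGF-β1 with the composition factor, library totals and median-of-ratios scaling, and the sides were level with loess offsets. When low peaks were left out, more were higher with OSM under the composition factor. Loess offsets on those peaks gave 8312 higher with TGF-β1 and 7670 higher with OSM. The number called with the composition factor also moved by more than 1.5 times when a single library was left out, to 36391 without TGF-β1 replicate 4, 33990 without OSM replicate 1, 34275 without OSM replicate 2 and 35379 without OSM replicate 3. The library labelled IL-6 replicate 4 held only 148.8 Mb and enters this comparison through the scaling and the spread. Leaving it out gave 45902 higher with TGF-β1 and 17501 higher with OSM, with a median difference of 0.39.

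**Figure D1:**
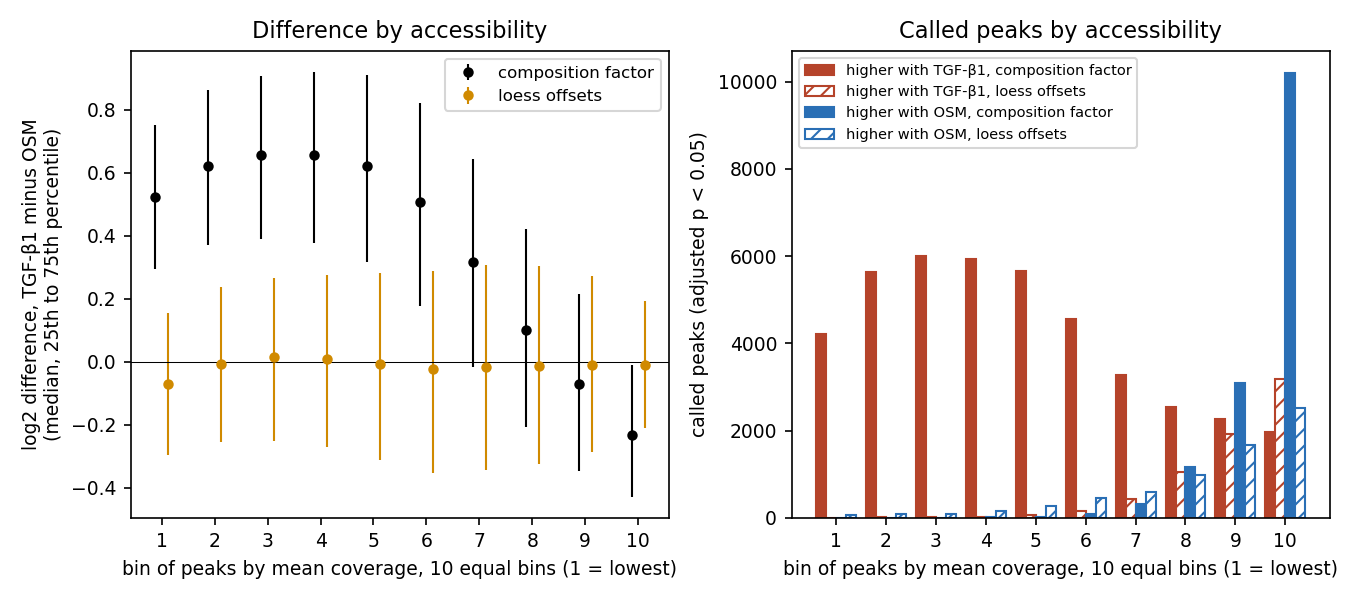
Left, median difference (TGF-β1 minus OSM, log2, with the 25th to 75th percentiles) in 10 equal bins of the tested peaks ordered by mean coverage (bin 1 lowest), with the composition factor in black and loess offsets in orange. Right, called peaks in each bin. With the composition factor the median falls from above 0.5 in the low bins to -0.23 in bin 10, and with loess offsets it stays near 0.

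The results that follow rest on the 11268 peaks called under both scalings in the same direction. Of the calls with the composition factor, 19.8% were among them, and of the calls with loess offsets 81.8%. No peak was called in opposite directions. They split into 5657 peaks higher with TGF-β1 (1.39% of those tested) and 5611 higher with OSM (1.38%). The groups did not overlap in 5096 and 5065 of them. Their median coverage was 5.17 per Mb with TGF-β1-higher peaks and 5.95 with OSM-higher peaks, against 0.788 over all tested peaks. Of the TGF-β1-higher and OSM-higher peaks, 5558 and 5550 were among the 169258 tested peaks with a mean of at least 1 per Mb. The share called was thus higher among such peaks than over all tested peaks. Shares given below for named genes were not matched for coverage. The 36416 peaks called higher with TGF-β1 with the composition factor alone had a median of 0.648, and the 9322 called higher with OSM in that way had a median of 13.5. On the scale of the composition factor, a difference of at least 1 was found in 3193 TGF-β1-higher and 3239 OSM-higher peaks, and one of at least 2 in 328 and 70.

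The unstimulated libraries were set beside both groups as a reference. Among peaks higher with TGF-β1, the unstimulated mean lay between the groups in 4041, below both in 1084 and above both in 532, and it was nearer to the OSM mean in 62.7%. Among peaks higher with OSM it lay between the groups in 4561, below both in 619 and above both in 431, and it was nearer to the TGF-β1 mean in 50.6%. These counts carry no test.

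The peak that differed most in favour of OSM lay beside SOCS3, the STAT3 feedback inhibitor, at chr17:78354897-78355397, in intergenic sequence 1631 bases from the gene. Its coverage per Mb was 26.0, 27.2, 19.7 and 21.5 in the OSM libraries and 1.92, 0.553, 0.213 and 0.757 in the TGF-β1 libraries. All OSM libraries stood far above every TGF-β1 library, and the unstimulated mean of 1.80 ± 0.495 (SD, n = 4) lay beside the TGF-β1 values. The difference was -4.28 ± 0.32 (SE, limma adjusted p = 7.97e-28) and -4.36 with loess offsets.

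The next OSM-higher peak carried the name IL7R, the interleukin-7 receptor, and lay in an intron of the neighbouring gene SPEF2. It held 9.49, 10.4, 10.8 and 9.61 per Mb with OSM and 1.02, 0.349, 1.68 and 0.675 with TGF-β1 (difference -2.97 ± 0.34, limma adjusted p = 3.44e-13). The unstimulated mean was 1.44 ± 0.627. The peak near TMEM40 held 11.5 ± 2.60 with OSM and 1.22 ± 0.581 with TGF-β1 (SD, n = 4), with an unstimulated mean of 4.25, between the groups. A peak in an intron of RUNX1, a transcription factor of the Runt family, carries the name LOC100506403 in the table. Its level was 18.1 ± 1.68 with OSM and 2.38 ± 0.563 with TGF-β1, while unstimulated cells held 6.07 ± 0.734, so that the cytokine groups lay on opposite sides of unstimulated cells.

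The IGSF23 peak lay in an intron of the pseudogene CEACAM22P. It held 16.1, 19.0, 20.5 and 16.8 per Mb with OSM and 1.84, 3.54, 3.28 and 2.18 with TGF-β1. TGF-β1 libraries overlapped unstimulated libraries there (2.34 ± 0.906). The CXCL17 peak, in an intron of the antisense gene LIPE-AS1, held 9.13 ± 0.902 with OSM and 1.27 ± 0.705 with TGF-β1. Both peaks lie on chromosome 19 near genes of the CEACAM family, whose members share sequence, and reads from one may have been placed at the other, which was not tested. The last of the OSM-higher peaks chosen by size were those at TMEM150C, NFASC (a cell adhesion molecule), DAGLA (a diacylglycerol lipase of endocannabinoid synthesis) and LOC100131315. The LOC100131315 peak lay in an untranslated exon of GREM1, a secreted antagonist of bone morphogenetic proteins, and held 10.3 ± 1.99 with OSM against 1.70 ± 1.05 with TGF-β1. Differences of these 4 peaks ran from -2.65 at TMEM150C to -2.39 at DAGLA.

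Among peaks higher with TGF-β1, a peak named MIR4794 had the lowest adjusted p of those chosen by size. It lay in an intron of CACHD1 at chr1:64623718-64624218. It held 17.8, 17.7, 16.2 and 17.4 with TGF-β1 and 0.84, 0.534, 0.736 and 0.417 with OSM (difference 3.99 ± 0.31, limma adjusted p = 1.11e-25), and the unstimulated mean of 2.33 ± 1.44 lay nearer to OSM.

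ITGB1 encodes integrin β1, a subunit of fibroblast receptors for collagen and fibronectin. Its named peak, which holds the SMAD palindrome printed above, lay in an intron shared with ITGB1-DT and held 9.52, 4.51, 5.39 and 5.74 per Mb with TGF-β1. With OSM it held 0, 0.169, 0.343 and 0.61, about the level of unstimulated cells (0.438 ± 0.227). The peak named C1orf105, in an intron of the dynamin gene DNM3, was the most even of these peaks in the OSM libraries, relative to its mean, with 14.8, 15.0, 17.2 and 13.8 with TGF-β1 and 1.22, 1.24, 1.18 and 1.37 with OSM (difference 3.16 ± 0.30, limma adjusted p = 2.91e-18). The BDKRB2 peak, named for the bradykinin B2 receptor, was intergenic and held 7.85 ± 1.67 with TGF-β1 and 0.373 ± 0.307 with OSM. The peak near CDC42EP3, an effector of the actin regulator CDC42, held 6.56 ± 1.67 and 0.218 ± 0.152. Differences of 4 further chosen peaks ran from 3.43 at LRIG3 to 3.06 at MAP3K20, the latter in an intron of RAPGEF4. All 20 chosen peaks were called with both scalings under all 21 alternatives tried. They had been chosen for size and for calls under both scalings, which favours that outcome.

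**Figure D2:**
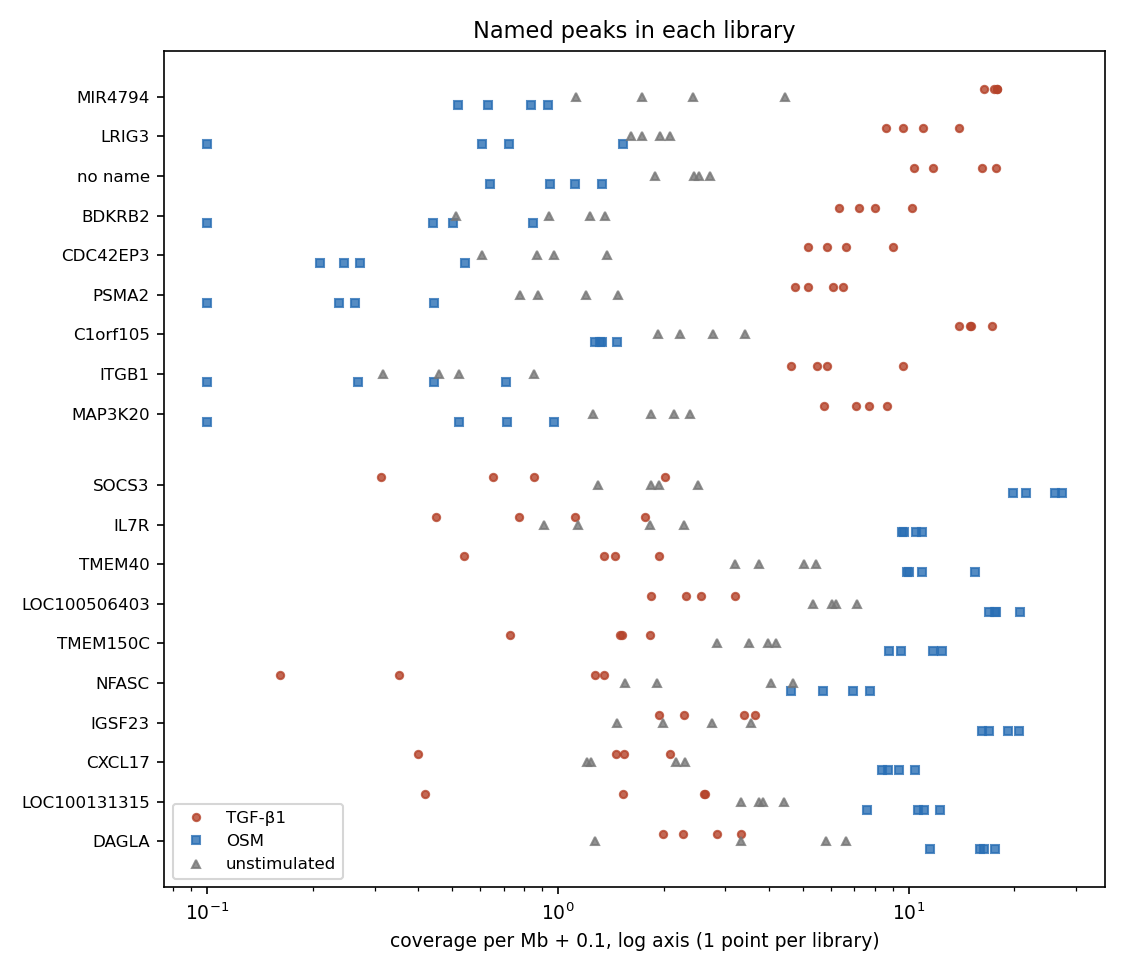
Coverage per Mb (with 0.1 added, log axis) of peaks with the largest differences in each direction, in the 4 TGF-β1, 4 OSM and 4 unstimulated libraries, 1 point per library. In each row the TGF-β1 and OSM points do not overlap. In the upper block unstimulated libraries overlap the OSM points or lie between the groups, with a mean above that of OSM in each row. In the lower block they lie near the TGF-β1 points at SOCS3, IL7R, IGSF23 and CXCL17 and in between at several others.

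Single genes carried up to 21 peaks higher with TGF-β1 and up to 30 higher with OSM, a small part of the 5657 and 5611 called. Genes were ranked on each side by the number of called peaks that carry their name. On the TGF-β1 side TGFBI, a secreted matrix protein named for its induction by TGF-β, had 21 of 36 tested peaks higher with TGF-β1 (58.3%, against 1.39% of all peaks), with differences from 0.49 to 2.30. SERPINE2, a secreted protease inhibitor, had 17 of 64, DEC1 had 15 of 96, and PPP1R3C, a glycogen-targeting phosphatase subunit, had 13 of 66. None of these 4 genes had a peak called higher with OSM. The 21 TGFBI peaks extended from 35.5 kb upstream of the gene's start to 9.81 kb downstream, and 5 lay within the gene. Of the 17 SERPINE2 peaks, 7 lay within the gene, and the farthest downstream was 40.2 kb from its start.

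On the OSM side THBS1 came first with 30 of 132 tested peaks (22.7%, against 1.38% of all peaks). It encodes thrombospondin-1, a matrix glycoprotein that can activate latent TGF-β. The THBS1 differences ran from -1.90 to -0.80, and 26 of the 30 peaks lay within the gene. The peak that differed most held 23.1, 19.2, 19.0 and 18.7 with OSM and 6.13, 5.88, 2.47 and 6.57 with TGF-β1, with unstimulated cells at 8.12. In the other direction 3 peaks named THBS1 were higher with TGF-β1, the largest of them 118 kb upstream with 3.61 ± 0.935 against 0.102 ± 0.130. NAMPT, the rate-limiting enzyme of the nicotinamide salvage pathway, had 25 of 127 peaks higher with OSM, and KLF9, a Krüppel-like transcription factor, had 18 of 141. LOC101929935 had 18 of 233. SOCS3 had 16 of 48 (33.3%) and ADAMTS1, a secreted metalloproteinase, 16 of 76 (21.1%). No peak of these last 5 genes was called higher with TGF-β1. At SOCS3 the called peaks lay from the start site to 35.5 kb downstream of it, 4 of them within the gene.

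**Figure D3:**
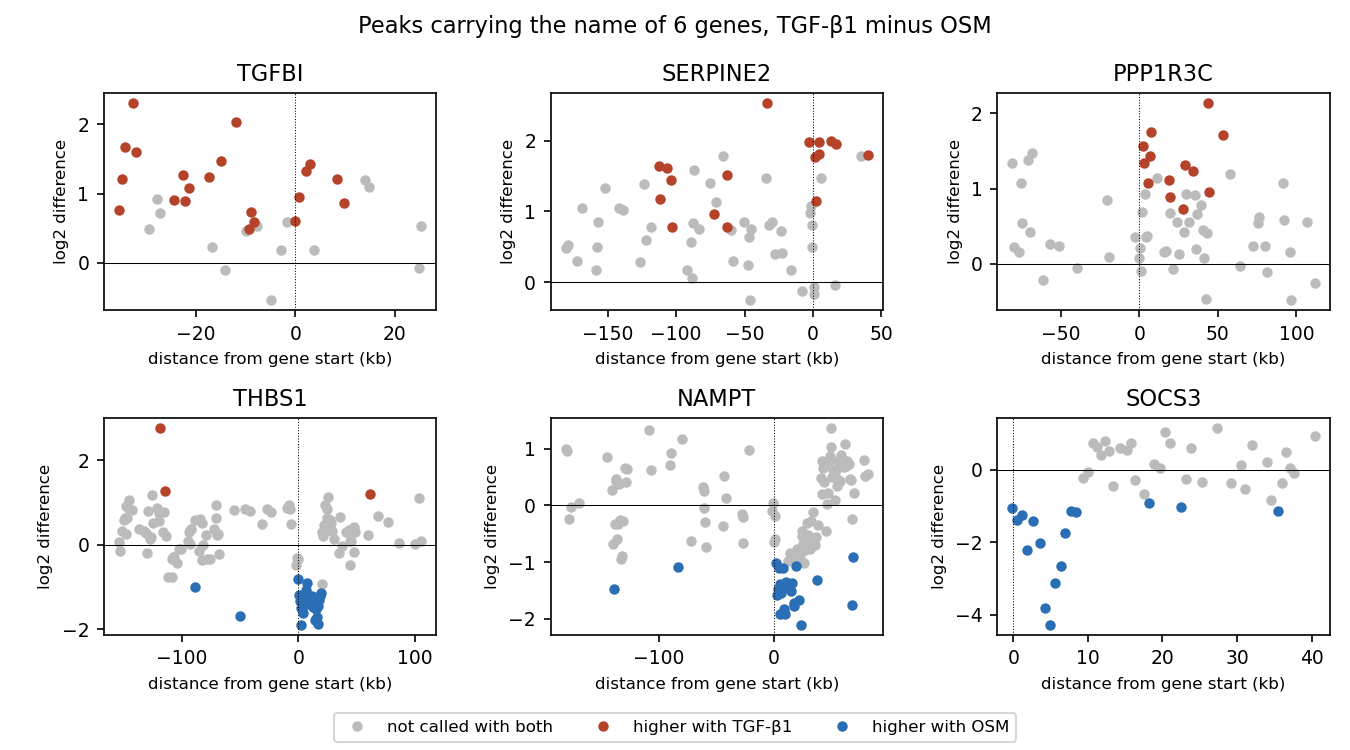
Difference (TGF-β1 minus OSM, log2) of each tested peak that carries the name of 1 of 6 genes, against the distance of the peak's centre from the gene's annotated start in kb, positive in the direction of transcription. Red and blue points were called with both scalings and grey points were not. TGFBI has 21 red points and SERPINE2 17, while the blue points of THBS1 and NAMPT sit mostly just downstream of the start.

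Called peaks were also counted by position in the genome, without a test. Promoter peaks made up 7.15% of tested peaks, 2.56% of those higher with TGF-β1 and 8.43% of those higher with OSM. Among tested peaks with a mean of at least 1 per Mb, where nearly all called peaks lay, the promoter share was 12.7%. Distal peaks made up 39.7% of the TGF-β1-higher and 32.6% of the OSM-higher peaks, against 34.5% of all tested peaks. Of all 29105 promoter peaks, 0.498% were higher with TGF-β1 and 1.63% higher with OSM.

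Short strings of known factors were counted in both strands of each 500-base peak, as a description without a test. The AP-1 string TGANTCA was in 53.1% of peaks higher with TGF-β1 and 28.2% of peaks higher with OSM, against 25.7% of all tested peaks. The SMAD palindrome GTCTAGAC was in 141 of 5657 peaks higher with TGF-β1 (2.49%) and 6 of 5611 higher with OSM (0.107%), against 0.342% of all. Of the 1394 tested peaks that held it, 10.1% were higher with TGF-β1, and of the 393 that held both it and the AP-1 string, 17.8% were. The shorter SMAD string CAGACA was in 53.9% and 26.1%, against 33.2%. In the other direction, the STAT3 string TTCCNGGAA was in 6.33% of peaks higher with OSM and 1.29% of those higher with TGF-β1, against 2.29%. The wider GAS string TTCNNNGAA, which covers every STAT3 match, was in 25.4% and 15.0%, against 17.2%. The C/EBP string TTGCNNAA was in 35.5% of peaks higher with OSM, 25.2% of those higher with TGF-β1 and 25.8% of all.

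Higher coverage goes with more AP-1 strings in general, so the shares were also read within ranges of coverage. In peaks with more than 10 per Mb the AP-1 string was in 62.7% of TGF-β1-higher, 33.9% of OSM-higher and 35.5% of all peaks. Between 1 and 3 per Mb it was in 41.7, 24.4 and 27.9%. The STAT3 string was in 0.82, 6.54 and 2.28% above 10 per Mb and in 1.57, 4.97 and 2.06% between 1 and 3, and the SMAD palindrome in 3.36, 0.126 and 0.423% and in 2.22, 0.166 and 0.378%. Leaving out promoter peaks, the AP-1 string was in 53.4% of TGF-β1-higher and 29.3% of OSM-higher peaks. Some strings hardly separated the groups. TEAD (ACATTCC) was in 12.3% and 11.3% and RUNX (TGTGGTT) in 13.2% and 15.1%, both above their shares of all peaks (8.65% and 10.9%). CTCF matches were in 0.177% and 0.339%, below the 0.83% of all peaks.

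**Figure D4:**
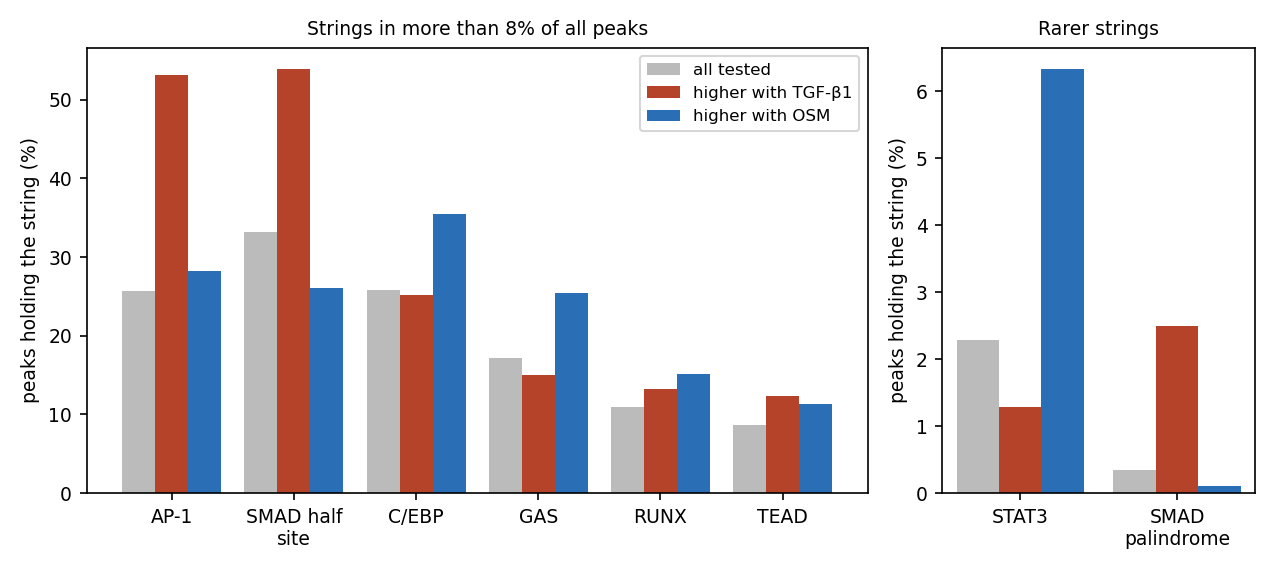
Percent of peaks that hold each string at least once, in all tested peaks (grey), peaks higher with TGF-β1 (red) and peaks higher with OSM (blue), with the rarer strings on an axis of their own. The AP-1 bars read 25.7, 53.1 and 28.2%, and the STAT3 bars 2.29, 1.29 and 6.33%.

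The 7 lists held 189 genes, of which 186 had a tested peak within 1 kb of a start site, and the nearest such peak was used. With both scalings 7 were higher with TGF-β1 and 13 higher with OSM (3.76% and 6.99%), against 0.498% and 1.63% of all promoter peaks. The median over all promoter peaks was -0.03 with the composition factor and -0.05 with loess offsets. All promoter peaks are not matched to the start-site peaks of the lists. Many of the latter held more coverage than the median promoter peak (2.89 per Mb), and some are of another class. With the composition factor the median difference was -0.07 in bin 9 and -0.23 in bin 10 of coverage, so the list medians and shares below carry that limit.

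Of the 26 genes of TGF-β signalling and feedback, 2 were higher with TGF-β1 at the start site, among them TGFBI, and SKI, a nuclear co-repressor of SMADs, was higher with OSM. The list's median was -0.12 with the composition factor and 0.11 with loess offsets. The TGFBI peak held 18.4, 12.9, 18.0 and 12.2 with TGF-β1 and 10.3, 9.45, 10.3 and 8.91 with OSM, and OSM libraries lay at the level of unstimulated ones (10.1 ± 0.569). The SKI peak held 9.34 ± 2.44 with TGF-β1 and 19.9 ± 0.681 with OSM, while unstimulated cells held 10.2 ± 1.32. Counted over every peak named for these genes, 67 of 1347 were higher with TGF-β1 (4.97%) and 15 with OSM (1.11%). Most of the 67 lay at a few of the genes, and TGFBI alone gave 21 of them. They also included 7 of 124 peaks at SMAD7, the inhibitory SMAD, the largest with 5.22 ± 2.51 against 0.518 ± 0.256. At SMAD3 4 of 139 were higher with OSM. Over all tested peaks the shares were 1.39% and 1.38%.

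Of the 28 matrix and crosslinking genes, COL7A1 (collagen VII), VCAN (versican) and TNC (tenascin C) were higher with TGF-β1 and none with OSM. The COL7A1 peak, in a coding exon, held 10.2 ± 0.823 against 5.40 ± 1.01 (difference 0.88 ± 0.20, limma adjusted p = 0.000751). TNC was near the threshold (limma adjusted p = 0.0495), and unstimulated cells were higher there than either group (13.3 ± 2.77, against 11.9 ± 0.595 with TGF-β1 and 8.76 ± 1.70 with OSM). Over all tested peaks, not matched for coverage, 1.39% were higher with TGF-β1 and 1.38% with OSM. Over the peaks named for these genes, 69 of 1571 were higher with TGF-β1 (4.39%) and 6 with OSM (0.382%). Of the 28 genes, 22 had at least 1 peak higher with TGF-β1. COL1A1 had 5 of 29, COL6A3 6 of 142 and TNC 9 of 72. At COL1A1 the peak that differed most held 7.82 ± 0.970 with TGF-β1 and 4.51 ± 0.848 with OSM, with unstimulated cells at 9.13.

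Of the 24 contractile genes none was higher with TGF-β1 at its start site, and TPM4, a tropomyosin, was higher with OSM (19.4 ± 1.38 against 10.6 ± 1.52). Unstimulated cells held 17.2 ± 2.11 at TPM4 and so lay nearer to OSM. Over all peaks named for contractile genes, start-site peaks included, 22 of 817 were higher with TGF-β1 (2.69%, against 1.39% of all tested peaks) and 6 with OSM (0.734%, against 1.38%). These shares were not matched for coverage. TPM1, another tropomyosin, accounted for 10 of the 22, out of 63 tested peaks.

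Of the 28 genes of the OSM receptor and JAK-STAT pathway, 5 were higher with OSM at the start site and none with TGF-β1, with a list median of -0.40 (-0.23 with loess offsets). They were SOCS3, SOCS1, IL6ST, BCL6 and MYC. The SOCS3 start-site peak held 26.7, 34.8, 36.0 and 28.0 with OSM and 18.8, 16.9, 12.5 and 11.7 with TGF-β1 (difference -1.06 ± 0.14, limma adjusted p = 2.02e-10), and unstimulated cells held 16.5 ± 3.00. At IL6ST, the gp130 gene, the groups were 37.1 ± 2.01 and 21.7 ± 1.05, with unstimulated cells at 25.0 ± 5.35. BCL6 and MYC were closer to the threshold with loess offsets (limma adjusted p = 0.0258 and 0.0491). Over all tested peaks, not matched for coverage, 1.38% were higher with OSM and 1.39% with TGF-β1. Over the peaks named for these genes, 57 of 935 were higher with OSM (6.10%) and 9 with TGF-β1 (0.963%). After SOCS3, CEBPD, a C/EBP transcription factor, had the most, with 10 of 98, the largest holding 17.2 ± 1.74 with OSM and 3.48 ± 0.810 with TGF-β1, against 10.1 without cytokine.

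Of the 29 inflammatory fibroblast genes with a peak, CXCL1, CCL2, CFB and C1S were higher with OSM and none with TGF-β1. These encode chemokines for neutrophils and monocytes, complement factor B and a complement protease. CXCL1 held 12.5, 15.5, 15.2 and 15.9 with OSM, 7.36, 6.34, 6.80 and 7.99 with TGF-β1, while unstimulated cells held 11.7 ± 0.263. At CCL2 the OSM level of 14.3 ± 0.532 was close to that of unstimulated cells (13.5 ± 1.34), and TGF-β1 was lower, at 7.98 ± 1.26. The C1S start-site peak, which the table names for the neighbouring C1R, likewise held 47.1 ± 1.89, 41.2 ± 3.97 and 29.4 ± 3.44 in OSM, unstimulated and TGF-β1 cells. Over all peaks named for these genes, start-site peaks included, 31 of 760 were higher with OSM (4.08%) and 16 with TGF-β1 (2.11%). Over all tested peaks, not matched for coverage, the shares were 1.38% and 1.39%. IL1R1, the interleukin-1 receptor, had 8 of 74 higher with OSM. IL11, a cytokine of the same family as OSM, had 4 of 5 tested peaks higher with TGF-β1, the largest with 4.19 ± 1.14 against 0.729 ± 0.702, and FAP, a fibroblast surface protease, had 4 of 24.

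Of 13 metalloproteinase and inhibitor genes with a peak, MMP3 and MMP10, both stromelysins, were higher with TGF-β1 at the start site. MMP10 held 12.7 ± 2.35 with TGF-β1, 7.83 ± 0.583 with OSM and 5.58 ± 0.762 in unstimulated cells. Over all peaks named for these genes, 15 of 585 were higher with TGF-β1 (2.56%) and 24 with OSM (4.10%). All tested peaks gave 1.39% and 1.38%. On the TGF-β1 side the most came from TIMP3, an inhibitor, with 5 of 159. On the OSM side ADAMTS1 gave 16 of 76 and ADAMTS9 6 of 154.

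Of 38 transcription factors, TEAD4 and TWIST2 were higher with OSM at the start site (9.44 ± 1.66 against 3.68 ± 0.340 for TEAD4) and none with TGF-β1. Over all peaks named for these factors, 37 of 1826 were higher with TGF-β1 (2.03%, against 1.39% of all tested peaks) and 53 with OSM (2.90%, against 1.38%). These shares too were not matched for coverage. The factors named next were chosen after their values were seen. FOS, which encodes an AP-1 subunit, had 9 of 41 peaks higher with OSM and none higher with TGF-β1. The FOS peak that differed most held 20.3, 28.2, 19.9 and 23.1 with OSM and 8.13, 7.78, 9.80 and 5.96 with TGF-β1, with unstimulated cells at 12.2. KLF2 had 8 of 89 and KLF6 7 of 109 peaks higher with OSM, while ETV4, an ETS factor, had 5 of 38 higher with TGF-β1.

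**Figure D5:**
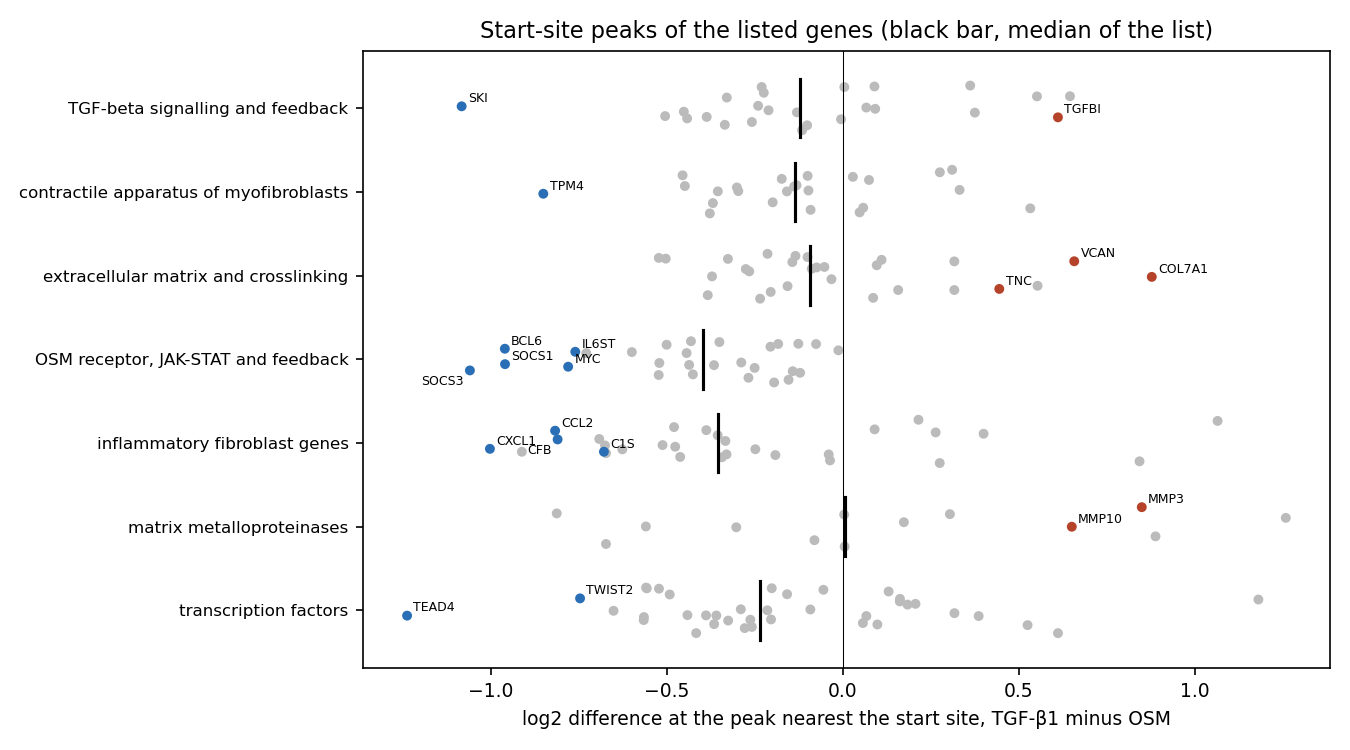
Difference (TGF-β1 minus OSM, log2, composition factor) at the start-site peak of each listed gene, 1 point per gene, with 1 gene of the TGF-β list not shown. Red and blue points were called with both scalings and are named, grey points were not, and black bars mark the list medians, from -0.40 in the OSM receptor and JAK-STAT list to 0.01 in the metalloproteinase list.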

How the data were processed

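Bulk ATAC-seq (in which a transposase tags open DNA for sequencing) was deposited as a table of 407383 peaks by 44 libraries. Per the labels and the study's methods, the authors aligned reads to hg38 with an ENCODE pipeline and called peaks with MACS2. How the deposited peaks were chosen is not given in the sources used here. The deposited signal is unscaled read coverage, added up across each 500-base peak, and a read counts as about 75 bases. Coverage follows whole reads and not cut sites.

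Coverage was divided by the library total in Mb and by a trimmed-mean composition factor (30% of log ratios and 5% of means trimmed), 0.5 was added, and log2 was taken. A filter removed the 209 peaks whose log2 mean coverage per Mb did not exceed -3. All 44 libraries entered limma 3.58.1 (R 4.3.3) with group as the only term and a mean-variance trend, and Benjamini-Hochberg values were taken over all 407174 tested peaks of the TGF-β1 against OSM contrast. The fit was repeated with loess offsets. Because values are coverage, no count model was used. Code was tested on simulated data.

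Named peaks were the 10 with the largest difference in each direction, called under both scalings, with a mean of at least 1 per Mb, no overlap between groups, and at most 1 per gene name. Genes were the 5 in each direction with the most called peaks, ties included, plus list genes called at the start site. Other list genes are named by their counts of called peaks, and were chosen after their values were seen. The comparison, members and lists were chosen with earlier results of these data known. Strings were searched on both strands in hg38, positions were read against GENCODE 44 (peak centres), and CTCF was searched by a longer consensus. For 1 value per library, exact permutation tests were two-sided (scipy 1.17.1). The unequal coverage spread of the groups affects every scaling, and no equal-input standard was used here. Levels compare a peak between libraries, all peaks having the same length. A few items that met these rules are not reported here.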

Additional observations from a re-analysis of the deposited data

Results flagged for a closer look

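In 88 groups of 4 libraries (depth, coverage spread, named peaks and called start-site peaks of listed genes), 2 had a library far from the other 3 relative to the range of the group, where chance gives about 1 in 20. The IL6ST start-site peak held 40.1 per Mb in OSM replicate 3, with 36.4 in the nearest OSM library. The C1S start-site peak held 34.5 in TGF-β1 replicate 3, with 27.9 in the nearest TGF-β1 library. Both libraries lay on their own group's side, and neither made the groups overlap.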

How the results depend on the processing

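With loess offsets in place of the composition factor, 13779 peaks were called, 6889 higher with TGF-β1 and 6890 with OSM (50% with TGF-β1), and the median difference turned to -0.014. Fitting only the 8 libraries gave 35516 peaks higher with OSM, 52.8% of calls higher with TGF-β1, a median of 0.278 and 8970 peaks higher with OSM under both scalings. The 8 libraries with loess offsets gave 20946 calls, 10223 higher with TGF-β1 (48.8%), and a median of -0.0080. A minimum mean of 1 per Mb gave 25491 calls with the composition factor, 10660 higher with TGF-β1 (41.8%), and a median of 0.013. With loess offsets that minimum gave 8312 higher with TGF-β1 and 7670 higher with OSM. Pseudocounts of 0.1 and 2 moved the median to 0.638 and 0.181. Sample quality weights gave 98137 calls, 77566 higher with TGF-β1. The cause of these shifts was not tested, beyond the medians by accessibility given above. Leaving out 1 library at a time (TGF-β1 and OSM libraries and the library labelled IL-6 replicate 4) gave 33990 to 63403 calls, 22784 to 45902 of them higher with TGF-β1, and a difference in the top 1% share of -3.30 to -2.87 percentage points, where 3 against 4 libraries cannot go below an exact p of 0.0571. The counts called with both scalings stayed within 1.5 times of the values reported under the other alternatives (4275 to 8117 higher with TGF-β1), as did the count of listed start-site peaks (14 to 28, against 20). Loess curves of fits without a library were those of the full set. Library totals, median-of-ratios scaling, the median of promoter peaks and GC correction replaced only the composition factor. The loess fit beside them was unchanged.

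Samples with the same replicate number did not deviate together. The correlations of their deviations were 0.0100, 0.0044, -0.0016 and 0.0269, and the labels do not tie the numbers to a batch. With the number as a replicate block the counts were 42752 and 15143. Of 20 named peaks under 21 alternatives, all 420 differences kept their direction and stayed past the threshold, which the choice of these peaks by size favours. Shares of strings, classes and GC moved beyond their counting interval in 34 cases, none of which changed the order of the groups against each other for the AP-1, SMAD, GAS and STAT3 strings. Depth limits the low peaks most, since many hold only a few reads in each library. Coverage sums could not be thinned to equal depth.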

Other observations

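The peaks that differed most were also read in the other cytokine groups of the series, without a test. At the SOCS3 peak downstream of the gene the mean coverage per Mb was 23.6 with OSM, and the other groups lay between 0.841 with TNF and 3.31 with IL-17A. IL-6, which shares gp130 with OSM, gave 2.47 there. Some OSM-higher peaks also had high means with IFNγ, for a reason that was not tested. DAGLA held 15.3 with OSM, 12.0 with IFNγ and 6.71 with IL-13, and CXCL17 held 9.13, 7.84 and 3.95. At NFASC the highest mean was that of IL-13, at 8.03, above the 6.16 of OSM. The 10 named peaks higher with TGF-β1 had their highest mean with TGF-β1 among all 11 groups. They had been chosen from these same TGF-β1 values, which favours that outcome. At the MIR4794 peak the mean was 17.3 with TGF-β1 and at most 4.15 in any other group, with TNF.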
